A study of Homo sapiens with 12 samples.

Results

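The metallothionein genes MT1A, MT1E, MT1F, MT1G, MT1M, MT1X and MT2A, the metal-sensing transcription factor MTF1 and the zinc exporter SLC30A1 were followed through the mRNA-seq of 2 human glioblastoma cell lines. These 9 genes were taken by symbol, matched to Ensembl identifiers, from the 58174 rows of the gene tables, by a rule that uses no measured value. U87 and U118 are established lines, and in both the cells had been depleted of CD133+ and CD15+ cells before the experiment and were kept in serum with a bone morphogenetic protein. Sensitive cells of each line were grown without drug. Resistant cells of each line, called aggregation cells in the study, came from the few survivors of continuous temozolomide (TMZ), a DNA-alkylating drug, at 50 μM. Each of the 4 groups had 3 libraries. Nothing in the sources states whether the 3 libraries of a group came from separate cultures, so the p-values measure only the spread between these libraries.

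Metallothioneins are small, cysteine-rich proteins that bind zinc, copper and cadmium and buffer free zinc in the cell. MTF1 is activated by zinc, moves to metal response elements in the promoters of metallothionein genes and of SLC30A1, and raises their transcription. SLC30A1 sits in the plasma membrane and moves zinc out of the cell, while other SLC30 proteins load zinc into vesicles and organelles and SLC39 proteins bring zinc into the cytosol. Oxidants, heavy metals, heat and glucocorticoids are further known inducers of the metallothionein genes. The functional human MT1 and MT2 genes lie in one cluster on chromosome 16, interspersed with pseudogenes.

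Values were TPM, a share of the library total that already takes transcript length into account, so levels of different genes could be set side by side. TPM keeps no read counts, so depth was unknown and no limit of detection could be given. In bulk RNA of this kind, fewer cells of a type and less RNA per cell cannot be told apart. The changes given are differences in log2(TPM + 1), resistant minus sensitive, fitted with limma across every gene that reached 1 TPM in 3 or more libraries. This scale understates the change of genes with low values. A gene was called when its Benjamini-Hochberg adjusted p was under 0.05 and its change was at least 1 in size. The median change of all genes tested was -0.24 in U87 and -0.52 in U118. Median-ratio scaling, which sets each library by its typical gene, moved these medians to -0.01 and -0.02, and its values are therefore given beside the deposited ones for the genes that matter. The mitochondrially encoded genes took 12.9% to 16.9% of all TPM in sensitive and 22.2% to 23.7% in resistant U87 libraries. In U118 they took 7.42% to 19.7% in sensitive libraries, with replicate 3 the highest, and 13.2% to 29.9% in resistant libraries, with replicate 1 the lowest.

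The line labels of the resistant U118 libraries were at odds with their expression and were checked before their values were used. Spearman's rho across 16382 genes, which are not independent of each other, lay between 0.895 and 0.913 for the libraries labelled U118 resistant against the U87 libraries, and between 0.808 and 0.839 against the U118 sensitive libraries. Between the sensitive and the resistant U87 libraries it was higher than both, at 0.944 to 0.952. Of 86 genes at 10 TPM or more in all sensitive U87 libraries and under 0.5 TPM in all sensitive U118 libraries, 83.7% to 89.5% reached 1 TPM in the libraries labelled U118 resistant. Of the 157 genes with the opposite pattern, 23.6% to 29.9% did. In the U87 resistant libraries these shares were 98.8% to 100% and 5.10% to 6.37%. MT1F and the pseudogene MT1L are both among the 86 genes. Every U118 value below compares these libraries with the U118 sensitive libraries, and a change of cells cannot be told apart from a response to TMZ in it. All 3 libraries of the group share the pattern, so no U118 result could be given without them. Markers of the labelled cell type were partly present in all groups. VIM was listed at 4425 to 7149 TPM and CD44 at 311.4 to 867.9 TPM, whereas GFAP, S100B and SOX2, defining markers of glial and glioma stem cells, stayed under 0.7 TPM in every library. NES, another marker of glioma stem cells, was listed at 5.76 to 24.1 TPM. It was higher in all resistant than in all sensitive libraries of both lines, as were 13.6% of all genes tested in U87 and 15.7% in U118. Its changes of 0.51 in U87 and 0.98 in U118 were not called, and with median-ratio scaling only that in U118 was, at 1.48. OLIG2 was listed at 1.45 to 4.45 TPM in U87 and at 0 to 1.05 TPM in U118. Of 5 fibroblast genes the summed level was 229.3 to 235.2 TPM in sensitive and 424.6 to 506.7 TPM in resistant U87 libraries, and 932.4 to 1160 TPM in sensitive against 242.7 to 570.0 TPM in resistant U118 libraries. Summed levels of 3 genes each reached at most 6.88 TPM for epithelial, 0.862 TPM for leukocyte and 1.2 TPM for endothelial genes, and 4.57 to 15.9 TPM for neuronal genes. The part of these cell type genes in the metallothionein values was not tested.

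**Figure D1:**
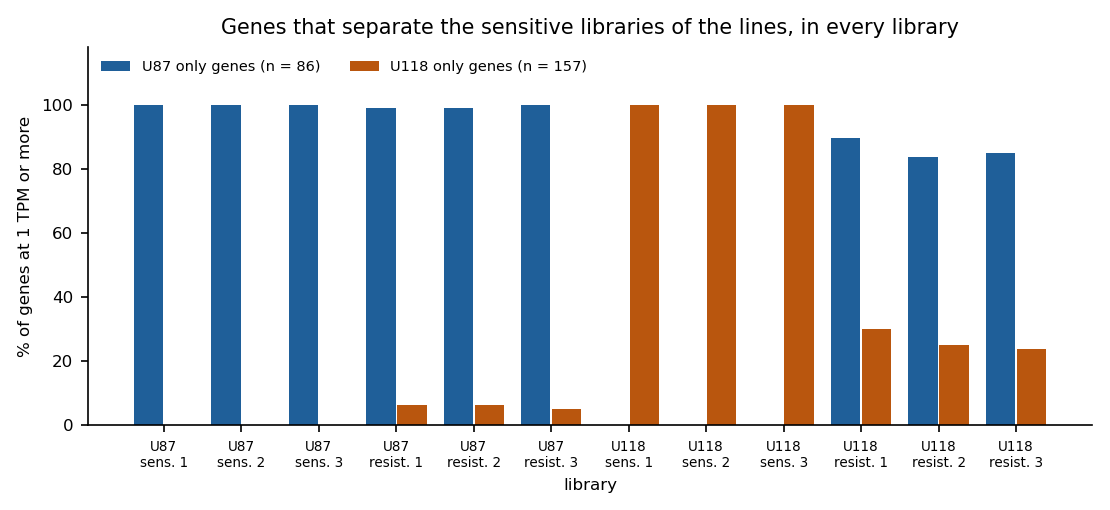
Bars give, for each of the 12 libraries (x axis), the percentage of 86 U87-only genes (blue) and 157 U118-only genes (orange) listed at 1 TPM or more (y axis, %). The libraries labelled U118 resistant hold 83.7% to 89.5% of the U87-only genes and 23.6% to 29.9% of the U118-only genes, unlike the U118 sensitive libraries, which define the sets and hold 0% and 100%. The U87 resistant libraries hold 98.8% to 100% and 5.10% to 6.37%.

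Promoter sequences were available for 4 of the 9 genes, MT2A, MT1X, SLC30A1 and MTF1, from RefSeq on GRCh38.p14. The 250 bases before the RefSeq start are shown for the 3 of them that held a metal response element core, since this is the sequence through which MTF1 is known to act. The core searched for was TGCGCNC or TGCACNC on either strand, and each match stands in capitals.
MT2A (chr16:56608334-56608583, plus strand): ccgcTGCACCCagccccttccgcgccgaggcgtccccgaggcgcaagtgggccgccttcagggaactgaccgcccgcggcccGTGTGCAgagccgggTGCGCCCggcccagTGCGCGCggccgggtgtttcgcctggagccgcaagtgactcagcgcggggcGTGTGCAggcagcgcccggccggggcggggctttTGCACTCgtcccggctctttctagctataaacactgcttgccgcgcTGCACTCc
MT1X (chr16:56682220-56682469, plus strand): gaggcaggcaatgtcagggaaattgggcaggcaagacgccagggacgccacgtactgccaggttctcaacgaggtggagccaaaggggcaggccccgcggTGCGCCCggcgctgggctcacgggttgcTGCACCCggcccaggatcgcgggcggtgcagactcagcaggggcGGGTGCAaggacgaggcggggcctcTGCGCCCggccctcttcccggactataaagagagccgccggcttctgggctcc
SLC30A1 (chr1:211579162-211579411, minus strand): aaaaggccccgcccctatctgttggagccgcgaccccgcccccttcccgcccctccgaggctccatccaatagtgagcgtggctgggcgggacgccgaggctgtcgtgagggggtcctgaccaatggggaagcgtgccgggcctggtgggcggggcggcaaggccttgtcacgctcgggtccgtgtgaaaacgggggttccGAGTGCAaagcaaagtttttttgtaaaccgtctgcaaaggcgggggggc
The MT2A window held 7 cores, 5 of them on the gene's own strand, that of MT1X held 4, with 3 on its own strand, and that of SLC30A1 held 1, on the other strand. No core was found in the MTF1 window. Of 35116 promoter windows of the same length, 24.8% held at least 1 core, 0.37% at least 4 and 0.031% at least 7. A match of these letters is a description of the window and does not show a bound site. The GENCODE gene of MT2A begins upstream of the RefSeq start, at position 56608199, so the MT2A window lies inside the span of that gene. The GENCODE gene of SLC30A1 begins downstream of its RefSeq start, at position 211578742, so the SLC30A1 window does not reach that start. For MT1X and MTF1 the GENCODE starts, 56682424 and 37859620, fall inside the windows. The counts of cores therefore hold for the RefSeq starts only.

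MT2A, the most abundant metallothionein in every library, and MT1X were higher in resistant than in sensitive U87 cells, by 2.0-fold and 2.15-fold in mean TPM. MT1F was 1.58-fold higher. MT1E, the second most abundant member in U87, did not differ by the test. Of the 9 genes, 7 were tested in U87, and MT1A and MT1G were not because their values were too low. MT1X was the 1 member called, against 10.8% of all 13845 genes tested (3.03% called higher and 7.79% called lower). MT1F, MT1X and MT2A, 3 members in all, passed the adjusted p alone. So did 5413 of all 13845 genes tested, 1306 of them higher and 4107 lower.

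MT2A (chromosome 16, 56608199 to 56609497, plus strand, GRCh38) was listed at 2682, 2474 and 2634 TPM in the sensitive U87 libraries and at 4928, 5557 and 5077 TPM in the resistant ones. All 3 resistant libraries stood above all 3 sensitive libraries, and the gap between the groups was far wider than the spread within either. Its log2 change was 0.997 (SE 0.067, limma adjusted p = 0.000124), just under the size needed for a call. With median-ratio scaling the change was 1.26 (adjusted p = 0.000313) and MT2A was called. Among all rows it ranked 37 to 42 by TPM in the sensitive and 19 to 25 in the resistant U87 libraries.

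MT1X (chromosome 16, 56682424 to 56684196, plus strand) was listed at 163.9, 145.4 and 155.2 TPM in sensitive U87 cells and at 314.8, 336.8 and 346.7 TPM in resistant ones. The groups did not overlap, and the lowest resistant library was far above the highest sensitive one. Its log2 change was 1.10 (SE 0.073, limma adjusted p = 0.00012), and 1.36 with median-ratio scaling. MT1F (chromosome 16, 56657694 to 56660698, plus strand) was listed at 68.8, 67.5 and 64.6 TPM in sensitive and at 100.7, 115.7 and 101.5 TPM in resistant U87 libraries. The 3 resistant libraries were again all higher, and the change of 0.65 (SE 0.083, limma adjusted p = 0.00128) stayed under the size for a call, as did the scaled change of 0.91. Resistant libraries lay above sensitive ones without overlap for 3 members in U87, where 13.6% of all genes tested showed that order.

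MT1E (chromosome 16, 56625475 to 56627112, plus strand) was listed at 716.1, 825.8 and 765.0 TPM in sensitive and at 709.0, 731.4 and 692.3 TPM in resistant U87 libraries. The ranges overlapped. The change of -0.11 (SE 0.069, limma adjusted p = 0.243) turned to 0.15 with median-ratio scaling and to 0.03 when TPM was recomputed without mitochondrially encoded genes, so it has no settled direction. MT1M was the 1 member with lower values in all resistant than in all sensitive U87 libraries, at 2.59, 2.68 and 3.06 TPM in sensitive and 2.16, 2.01 and 1.51 TPM in resistant libraries. These groups did not overlap, an order that 39.8% of all genes tested showed, and the change of -0.39 (SE 0.15, limma adjusted p = 0.0818) did not pass.

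**Figure D2:**
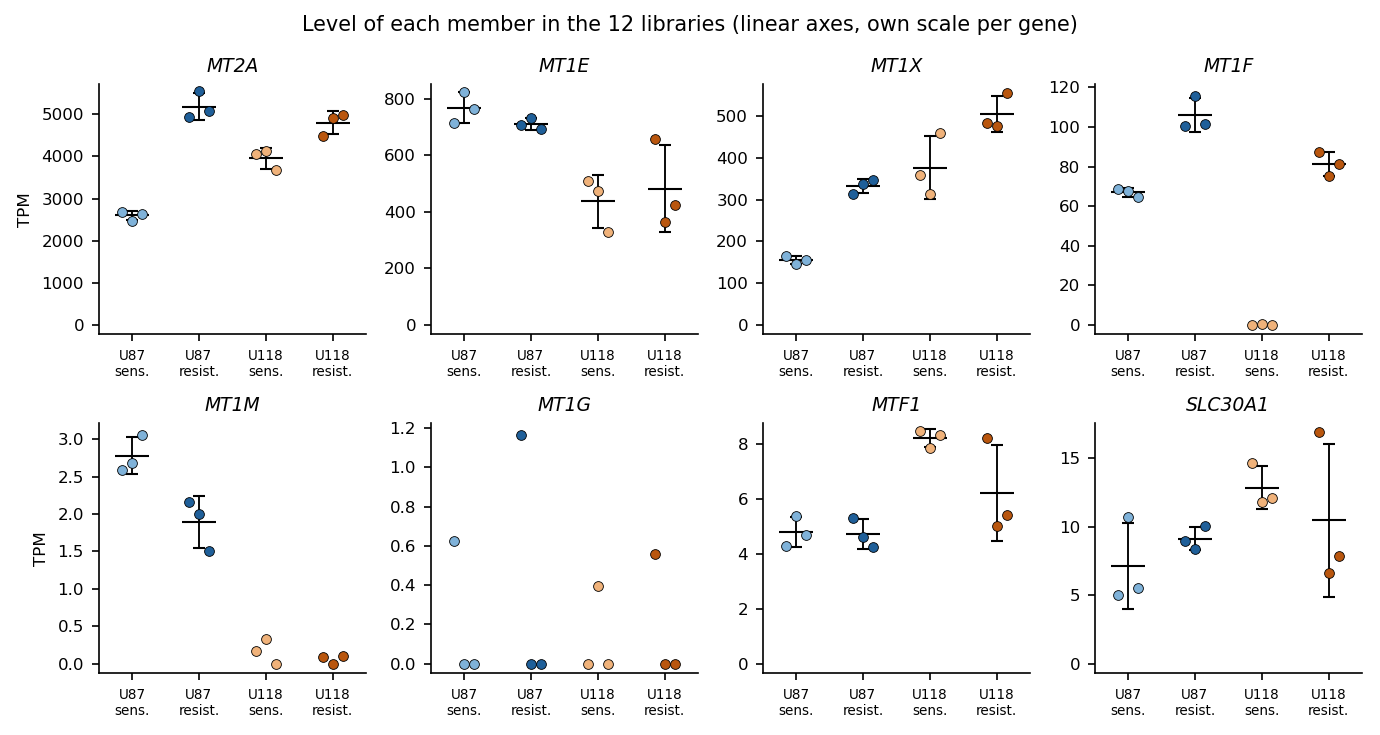
Points give the TPM of 8 members in each of the 12 libraries (y axis, linear and on its own scale for each gene), by group (x axis). Horizontal bars and whiskers give the mean and SD of 3 libraries and are left out for groups with a library listed at 0. MT2A, MT1X and MT1F were higher in all resistant than in all sensitive libraries of both lines, MT1F from at most 0.235 TPM in U118 sensitive cells, and MT1A, listed at 0 everywhere, is not drawn.

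In U118, MT1F was the member that differed by far the most. It was near 0 in the sensitive libraries and at 75.4 to 87.3 TPM in the libraries labelled U118 resistant. MT1L, a pseudogene elsewhere in the same cluster, moved in the same way. MT2A and MT1X had higher values in all resistant-labelled libraries without passing the test. Of the 9 genes, 6 were tested in U118, and MT1A, MT1G and MT1M were not because of low values. MT1F was the 1 member called, in a comparison that called 35.3% of all 15527 genes tested (8.64% higher and 26.6% lower). With median-ratio scaling the calls over all genes split into 2337 higher and 1981 lower in place of 1341 and 4134, and in U87 into 663 and 543 in place of 419 and 1078.

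MT1F was listed at 0, 0.235 and 0 TPM in the sensitive U118 libraries and at 87.3, 75.4 and 81.5 TPM in the libraries labelled U118 resistant. Only sensitive replicate 2 was listed above 0, and the gene entered the fit through its 3 resistant libraries alone. The log2 change was 6.26 (SE 0.23, limma adjusted p = 2.83e-07). Its size depends on the pseudocount, since a pseudocount of 0.01 gave 11.45. The levels in the resistant-labelled libraries lay between those of sensitive U87 cells, 64.6 to 68.8 TPM, and resistant U87 cells, 100.7 to 115.7 TPM, with the reservation that each line comes from its own table.

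MT1L (chromosome 16, 56617476 to 56618818, plus strand), annotated as a transcribed pseudogene, was listed at 0, 0.339 and 0 TPM in sensitive U118 libraries and at 201.6, 142.0 and 171.8 TPM in those labelled resistant. In U87 it was present in both groups, at 49.0 to 51.3 TPM in sensitive and 59.5 to 72.9 TPM in resistant libraries. The resistant-labelled U118 libraries thus held more MT1L than any U87 library. Its log2 change was 7.28 (SE 0.25, limma adjusted p = 2.31e-07) in U118 and 0.40 (SE 0.096, limma adjusted p = 0.0166) in U87. The pseudogene MT1DP was listed at 2.59, 3.67 and 3.19 TPM in the libraries labelled U118 resistant and at 0 in the other 9 libraries, U87 included. It was called in U118 with a change of 2.04 (SE 0.18, limma adjusted p = 2.26e-05). In U118 both pseudogenes entered the fit through the 3 resistant-labelled libraries alone, so their calls follow in part from the filter.

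MT2A was listed at 4054, 4141 and 3669 TPM in sensitive U118 libraries and at 4487, 4916 and 4998 TPM in those labelled resistant. The groups did not overlap, and the means differed by 1.21-fold. The log2 change of 0.28 (SE 0.24) did not pass (limma adjusted p = 0.356), nor did the scaled change of 0.84 (adjusted p = 0.0706). MT1X was listed at 359.1, 313.1 and 459.7 TPM in sensitive and at 484.9, 476.9 and 556.1 TPM in resistant-labelled libraries. Here too the groups did not overlap, with sensitive replicate 3 close to the lowest resistant value. The change of 0.44 (SE 0.22, limma adjusted p = 0.128) became 1.00 with median-ratio scaling (adjusted p = 0.0192), a value of 0.997 before rounding and so short of a call. Non-overlapping, higher values in resistant libraries were seen for 3 members in U118 and for 15.7% of all genes tested. The opposite order was seen for none of the tested members and for 42.9% of all genes tested.

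MT1E in U118 was listed at 507.4, 473.4 and 329.9 TPM in sensitive and at 656.7, 364.6 and 423.7 TPM in resistant-labelled libraries. The groups overlapped widely. Its change of 0.12 (SE 0.28, limma adjusted p = 0.746) turned to -0.13 without resistant replicate 1 and to -0.07 without sensitive replicate 3. With median-ratio scaling it was 0.68 (adjusted p = 0.0329), under the size for a call. MT1M was listed at 0 to 0.325 TPM in all 6 U118 libraries, those labelled resistant included, while every U87 library held 1.51 TPM or more. MT1M, low in every library and not tested in U118, was thus near 0 in both U118 groups. MT1F and MT1L were near 0 in the sensitive U118 libraries only. The part of the line label in these values was not tested.

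**Figure D3:**
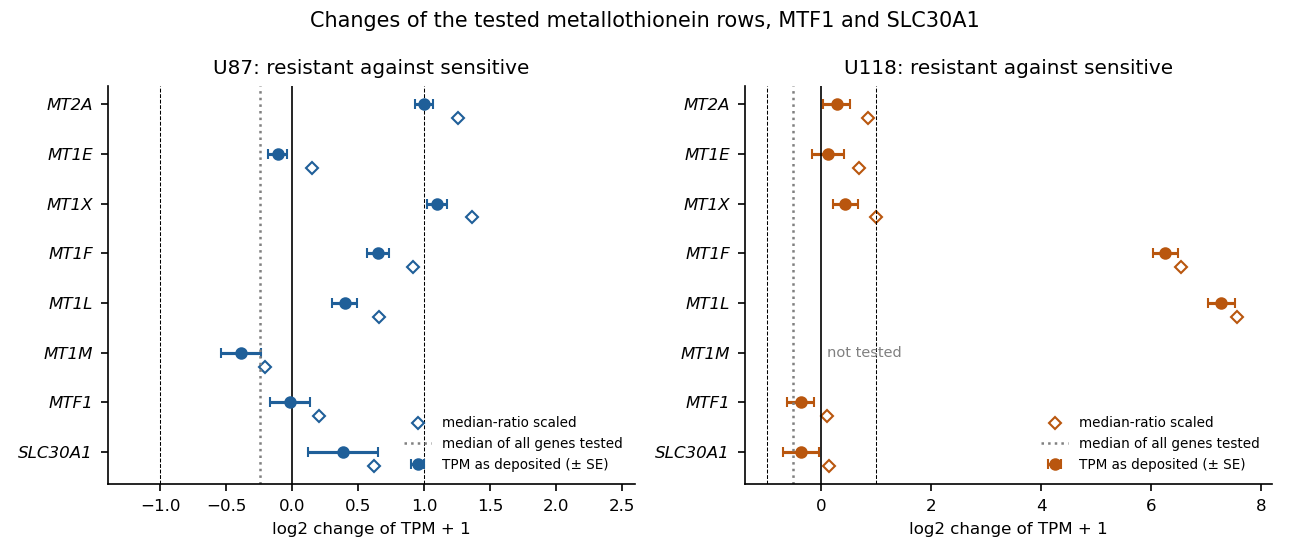
Filled points give the log2 change of TPM + 1, resistant against sensitive, with its limma SE (x axis) for 7 tested members and MT1L (y axis), U87 on the left and U118 on the right. Open diamonds give the change after median-ratio scaling, the dotted line the median of all genes tested, and dashed lines the size needed for a call. MT1F and MT1L, at 6.26 and 7.28 in U118, stand far from the other points, and MT1M was not tested in U118.

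The difference between the changes of the lines was fitted over all 12 libraries. MT1F was the 1 of 7 members tested whose difference was called, at 5.61 (SE 0.20, limma adjusted p = 1.28e-09, U118 minus U87), where 30.5% of 16382 genes were called. For MT2A the difference was -0.72 (SE 0.20, limma adjusted p = 0.0132) and for MT1X -0.66 (SE 0.21, limma adjusted p = 0.0276), both a larger change in U87 and both under the size for a call. Median-ratio scaling brought these differences to -0.47 (adjusted p = 0.298) and -0.41 (adjusted p = 0.327) with the same sign, so that neither passed. Without mitochondrially encoded genes they were -0.66 (adjusted p = 0.0183) and -0.60 (adjusted p = 0.0793). The difference was 0.23 for MT1E, 0.27 for MT1M, -0.36 for MTF1 and -0.75 for SLC30A1, with limma adjusted p between 0.209 and 0.583.

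By mean TPM, MT2A ran from 2597 ± 109 (SD, n = 3) in sensitive U87 cells through 3955 ± 251 in sensitive U118 cells and 4800 ± 274 in the libraries labelled U118 resistant to 5188 ± 328 in resistant U87 cells. The ranges of the last 2 groups overlapped and the others did not. MT1X took the order 154.9 ± 9.25 in sensitive U87, 332.8 ± 16.4 in resistant U87, 377.3 ± 75 in sensitive U118 and 506.0 ± 43.6 TPM in resistant-labelled U118 libraries. Its middle 2 groups overlapped. MT1E ran the other way between the lines, at 769.0 ± 55 in sensitive and 710.9 ± 19.6 TPM in resistant U87 cells against 436.9 ± 94.2 in sensitive U118 and 481.7 ± 154 TPM in resistant-labelled U118 libraries. Neither pair within a line was separated. The tables of the lines are separate, and no test was made between them.

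Summed over the 19 MT1 and MT2 rows, pseudogenes included, the family amounted to 3642 ± 64.8 TPM (SD, n = 3) in sensitive and 6410 ± 364 TPM in resistant U87 cells, and to 4771 ± 270 TPM in sensitive and 6047 ± 166 TPM in resistant-labelled U118 libraries. TPM divides each row by its own length, so a read assigned to another row would also change the sum, and it was given no test. As a share of all TPM it was 0.357% to 0.369% in sensitive and 0.612% to 0.682% in resistant U87 libraries, and 0.446% to 0.493% and 0.592% to 0.624% in U118. MT2A made up 69.3% to 72.8% of the sum in sensitive and 80.5% to 81.5% in resistant U87 libraries. MT1E made up 19.4% to 23.1% in the sensitive and 10.7% to 11.6% in the resistant ones. In U118, MT2A held 82.3% to 84.0% in sensitive and 75.7% to 82.2% in resistant-labelled libraries, where MT1L took 2.37% to 3.4%.

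**Figure D4:**
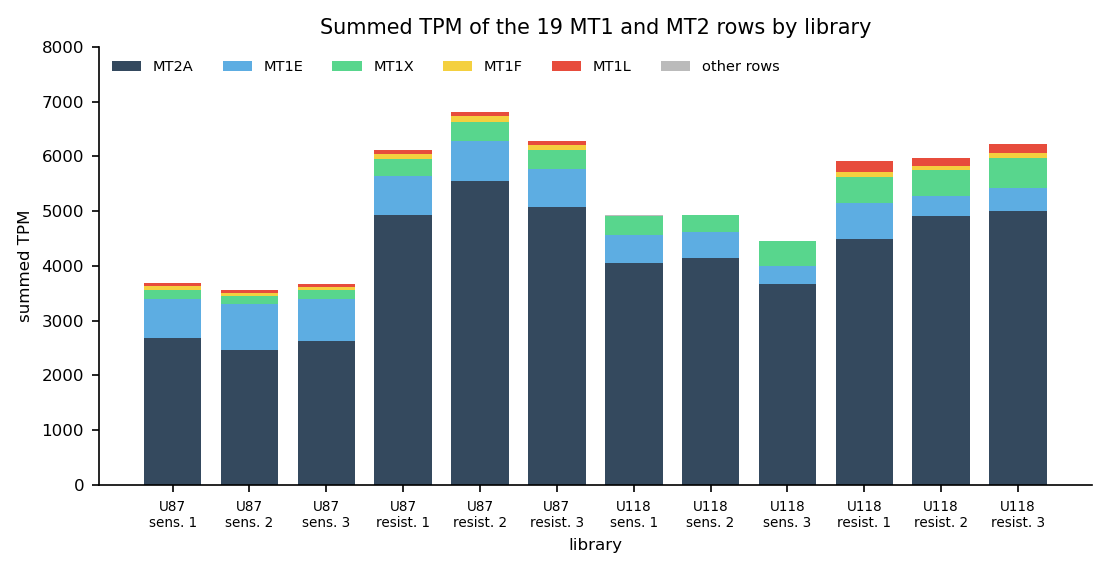
Stacked bars give the summed TPM of the 19 MT1 and MT2 rows (y axis) in each library (x axis), split into MT2A, MT1E, MT1X, MT1F, MT1L and the remaining rows. The U87 bars go from 3567 to 3686 TPM in sensitive to 6120 to 6818 TPM in resistant libraries. MT2A makes up 69.3% to 72.8% of the sensitive and 80.5% to 81.5% of the resistant U87 bars. MT1F and MT1L are absent from the bars of sensitive U118 libraries apart from traces under 0.4 TPM.

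The cluster spans 76.0 kb from MT2A to the end of MT1X. MT2A, MT1L and MT1E lay side by side at its start. Runs of rows with low values or 0 separated them from MT1F, and MT1F from MT1X. Of the 14 rows of the cluster, MT1A, MT1H and the pseudogenes MT1CP and MT1IP were listed at 0 in all 12 libraries. MT1G was listed at 0.626, 0 and 0 TPM in sensitive U87, at 1.17, 0 and 0 TPM in resistant U87, at 0, 0.397 and 0 TPM in sensitive U118 and at 0.560, 0 and 0 TPM in resistant-labelled U118 libraries. It was close to 0 in all groups and was not tested. Of all 21 metallothionein rows, MT3 and MT4 included, 11 never reached 1 TPM, and the highest of those values was 0.813 TPM. MT2P1, a processed pseudogene of MT2A on chromosome 4, was listed at 0.0930, 0.639 and 0.553 TPM in sensitive and 3.33, 2.22 and 2.08 TPM in resistant U87 libraries, and was called with a change of 1.32 (SE 0.22, limma adjusted p = 0.00365), having entered the fit through its 3 resistant libraries alone.

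**Figure D5:**
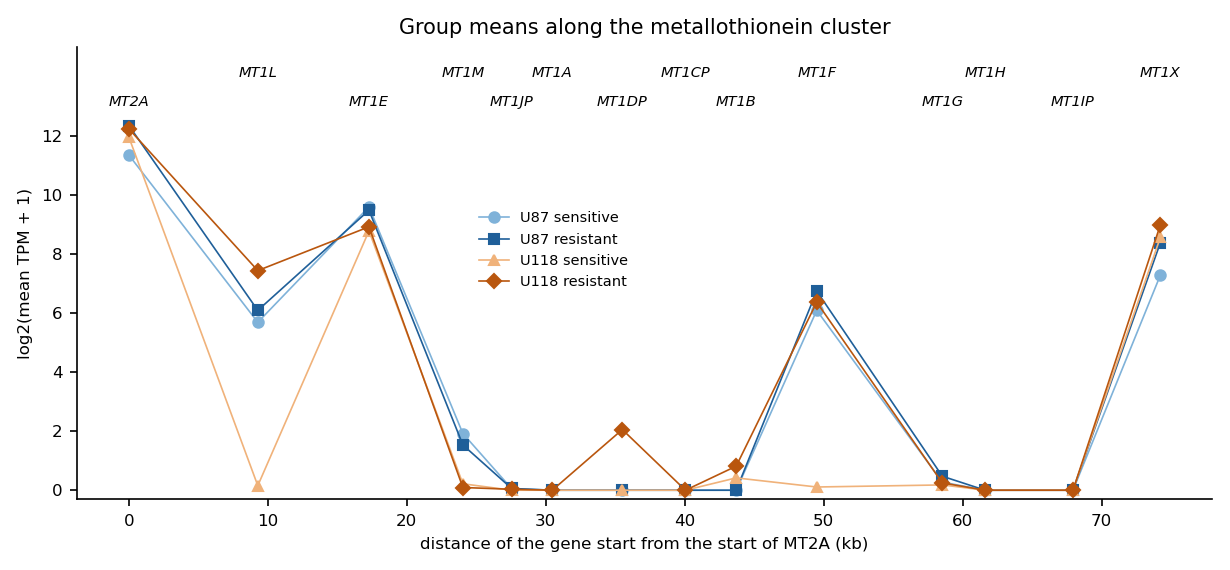
Points give log2(mean TPM + 1) of the 14 rows of the metallothionein cluster for the 4 groups (y axis), placed by the distance of each gene start from the start of MT2A in kb (x axis), with gene names above. MT1L (9.28 kb) and MT1F (49.5 kb) are near 0 only in sensitive U118 cells, MT1M (24.0 kb) is near 0 in both U118 groups, MT1X spreads from 154.9 to 506.0 TPM between groups, and MT1DP (35.5 kb) is listed above 0 only in the resistant-labelled U118 libraries.

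Reads of similar rows can be hard to separate, so the longest GENCODE transcript of each row was cut into windows of 50 and of 100 bases. At 50 bases, 4.68% of the windows of MT2A, 10.6% of MT1E, 7.05% of MT1M, 14.3% of MT1G and 4.42% of MT1L occurred in a transcript of another gene, and 1 window of 1524 did for MT1F. Other MT1F transcripts were not cut, and 15 windows of MT1M and 5 of MT1A occurred in an MT1F transcript at 50 bases. The 1 of 1524 therefore covers only the longest MT1F transcript. At 100 bases no window of the longest transcripts of MT2A, MT1E, MT1M, MT1G, MT1L and MT1F occurred in another gene. MT1X kept 7.68% at 100 bases, shared with AC026461.1, a transcript that overlaps it on the same strand and was listed at 0.143 TPM or less. MT2P1 shared 20 of its 134 windows of 50 bases with MT2A and none of 84 at 100 bases. Only exact matches were counted, so reads placed on a similar row with mismatches are not covered. The mean of MT2P1 was 5.94-fold higher in resistant U87 cells, from 0.428 TPM in sensitive ones, where MT2A was 2.0-fold higher. The part of MT2A reads in the MT2P1 values was not tested. The read length was not given in the sources used here.

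MTF1 (chromosome 1, 37809567 to 37859620, minus strand), the regulator, was low and showed no difference by the test in either line. It was listed at 4.29, 5.36 and 4.69 TPM in sensitive and at 5.32, 4.60 and 4.23 TPM in resistant U87 libraries. The ranges nearly coincided, and the change was -0.02 (SE 0.15, limma adjusted p = 0.94). In U118 it was listed at 8.44, 7.84 and 8.31 TPM in sensitive and at 8.21, 5.0 and 5.39 TPM in resistant-labelled libraries. Replicate 1 of the latter stood with the sensitive libraries and the other two below them. The change of -0.38 (SE 0.25, limma adjusted p = 0.225) turned to 0.11 with median-ratio scaling, and the U87 change to 0.20, so neither direction held across scalings. Without resistant replicate 1 the U118 change was -0.57 (adjusted p = 0.0139).

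SLC30A1 (chromosome 1, 211571568 to 211578742, minus strand), the exporter, was likewise not called in either line. In U87 it was listed at 5.05, 10.7 and 5.55 TPM in sensitive and at 8.96, 8.40 and 10 TPM in resistant libraries. Sensitive replicate 2 was above all resistant libraries and the other two below all of them. The change was 0.38 (SE 0.26, limma adjusted p = 0.291), and 0.68 (adjusted p = 0.00894) without sensitive replicate 2. In U118 it was listed at 14.6, 11.8 and 12.1 TPM in sensitive and at 16.9, 6.64 and 7.89 TPM in resistant-labelled libraries. Resistant replicate 1 was the highest of the 6 and the other two the lowest. The change of -0.37 (SE 0.33, limma adjusted p = 0.371) was -0.74 (adjusted p = 0.00722) without replicate 1 and 0.14 with median-ratio scaling. In U87 the change was 0.62 (adjusted p = 0.0488) with median-ratio scaling and all libraries kept. Whether SLC30A1 passed the adjusted p thus turned with 1 library in each line, in U87 also with the scaling, and its sign in U118 turned with the scaling.

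Other zinc exporters of the SLC30 family were called singly. SLC30A10, known mainly as a manganese exporter, was listed at 0.154, 0.193 and 0.213 TPM in sensitive and at 1.90, 1.63 and 2.11 TPM in resistant U87 libraries. It was low, and it entered the fit through its 3 resistant libraries alone, with a change of 1.28 (SE 0.13, limma adjusted p = 0.000463). It was the 1 called gene of 5 tested among the 9 other SLC30 genes in U87. In U118, where it was listed at 0 to 0.0974 TPM in sensitive and 0.786 to 2.37 TPM in resistant-labelled libraries, it was too low to be tested on the deposited scale. With median-ratio scaling it was tested there and called higher, at 1.28 (adjusted p = 0.000528), again through the resistant-labelled libraries alone. SLC30A3, which loads zinc into synaptic vesicles, was listed at 0.171, 0.141 and 0.561 TPM in sensitive U118 libraries and at 11.4, 9.11 and 9.57 TPM in those labelled resistant, with a change of 3.11 (SE 0.22, limma adjusted p = 8.02e-06). It too entered the fit through the 3 resistant-labelled libraries alone. No U87 library held more than 0.0568 TPM of it. SLC30A6 and SLC30A9 were called lower in U118, at -1.50 (limma adjusted p = 0.00604) and -1.23 (limma adjusted p = 0.00374), and neither was called with median-ratio scaling, at -0.99 and -0.72. In all, 1 of 6 tested SLC30 genes was called higher and 2 lower in U118, beside 8.64% and 26.6% of all genes, and the median change of the 6 was -0.97 beside -0.52 over all genes. With median-ratio scaling 2 were called higher, SLC30A3 and SLC30A10, and 0 lower.

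Of the 14 SLC39 importers, 11 were tested in each line. None was called in U87 by limma, with 2 at an unadjusted p under 0.05. Of all 13845 genes tested there, 5413 passed even the adjusted p. In U118, 1 was called higher and 2 lower, beside 8.64% and 26.6% of all genes, and with median-ratio scaling 3 higher and 1 lower. SLC39A4, the importer of dietary zinc in the gut, was listed at 2.98, 2.04 and 3.95 TPM in sensitive and at 27.7, 43.0 and 36.7 TPM in resistant-labelled U118 libraries. Its change there was 3.21 (SE 0.28, limma adjusted p = 2.26e-05), while the U87 libraries held 11.5 to 18.8 TPM with no separation of the groups. SLC39A9 and SLC39A10, called lower at -1.45 (limma adjusted p = 0.00789) and -1.59 (limma adjusted p = 0.00335), were at -0.91 and -1.10 with median-ratio scaling, where only SLC39A10 was called. SLC39A11 was listed at 27.4 to 29.5 TPM in sensitive and 49.8 to 62.4 TPM in resistant U87 libraries, and at 11.5 to 12.8 and 16.9 to 25.1 TPM in U118. It lay just short of a call in U87 (0.90, limma adjusted p = 0.00101) and in U118 (0.74, limma adjusted p = 0.0242), was called higher in both lines with median-ratio scaling, at 1.16 and 1.27, and was named after its values were seen. SLC39A13, likewise named afterwards, was at 0.88 (limma adjusted p = 0.00922) in U118 and was called higher there with median-ratio scaling, at 1.43 (adjusted p = 0.000822). Other genes of the 2 families fell short of a call on the lower side in U118. SLC30A4, SLC30A7 and SLC39A14 were at -0.96, -0.97 and -0.97 (limma adjusted p = 0.0154, 0.0301 and 0.0355). SLC39A6, SLC39A7 and SLC39A8, at -0.79, -0.83 and -0.75, also passed the adjusted p. None of these was called with median-ratio scaling.

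Some genes known to respond to the same stimuli as the metallothioneins were called, and which of them were called in U118 changed with median-ratio scaling. HMOX1, which breaks down haem and is induced by oxidants and heavy metals, was listed at 105.1, 95.8 and 101.4 TPM in sensitive and at 243.8, 226.0 and 234.4 TPM in resistant U87 libraries. Its groups lay wide apart, and its change was 1.21 (SE 0.069, limma adjusted p = 7.81e-05). In U118 its change was 0.46 (limma adjusted p = 0.111), or 1.02 with median-ratio scaling, which called it. The heat shock protein genes HSPA1A and HSPA1B, near-identical copies whose reads are hard to assign, changed by 1.14 and 1.2 in U87 (limma adjusted p = 0.000129 and 9.92e-05). In U118 HSPA1A was called lower at -1.37 (limma adjusted p = 0.00227) and HSPA8 at -1.18 (limma adjusted p = 0.0154), and neither was called with median-ratio scaling. BAG3, a partner of heat shock proteins, changed by -0.34 in U87 and by 0.74 in U118 and was not called in either, but was called higher in U118 with median-ratio scaling, at 1.29. In this list of 8 genes, 3 of 7 tested were called higher in U87, beside 3.03% of all genes, and 2 of 7 lower in U118, near the 26.6% of all genes. The U87 calls include the near-identical HSPA1A and HSPA1B. By sign, 4 of the 7 rose in U87 and 3 fell. Those that fell were HSPH1 (-0.87, limma adjusted p = 0.0328), HSPA8 (-0.31, limma adjusted p = 0.0182) and BAG3 (limma adjusted p = 0.00711), none of them called. With median-ratio scaling 2 were called higher and 0 lower in U118. Among 6 glucocorticoid-responsive genes, DUSP1, a phosphatase of stress kinases, was called higher in U87 at 1.19 (limma adjusted p = 0.000153) and FKBP5 lower in U118 at -1.07 (limma adjusted p = 0.00932, not called with median-ratio scaling). The counts were 1 of 4 tested, beside 3.03% of all genes called higher in U87, and 1 of 5, near the 26.6% called lower in U118. With median-ratio scaling TSC22D3, a glucocorticoid-induced leucine zipper protein, was called higher in U118 at 1.41 (adjusted p = 0.000839) and none lower.

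Genes around the cluster and genes of copper handling were not called within either line by limma. Of 6 tested neighbours, 1 in U87 and 3 in U118 had an unadjusted p under 0.05, and their median changes were -0.06 and -0.13. Of 8 tested copper genes, 6 in U87 and 2 in U118 had an unadjusted p under 0.05. Even the stricter adjusted p was passed by 5413 of all 13845 genes tested in U87 and 7961 of 15527 in U118. COX17, which carries copper to mitochondria, had a change of -0.92 in U87 and 0.54 in U118, and SLC31A2, a copper transporter of endosomes, had changes of -0.39 and 0.93. With median-ratio scaling both were called higher in U118.

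As a description, the 5 genes whose log2(TPM + 1) went most closely with MT2A over the 12 libraries were CYP26B1 (Pearson's r = 0.975), CHI3L2 (0.944), TNFRSF14 (0.940), PHLDB3 (0.936) and PSPN (0.931). For SLC30A1 they were FAM200C (0.981), CLIC4 (0.973), ZMPSTE24 (0.960), PRKAR1A (0.960) and MELK (0.960). The libraries fall into 4 groups and share their scaling, and these values were the highest among 16382 genes, so they only rank the genes. No metallothionein was among the 5 closest to MT2A, and no metallothionein was among the 5 closest to SLC30A1.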

How the data were processed

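The authors made mRNA libraries from total RNA with a VAHTS mRNA-seq V2 kit and deposited TPM per gene, in a table for each cell line. The submitters' processing notes name FastQC 0.11.2, Trimmomatic 0.36, HISAT2 2.0, bedtools 2.26.0 and GRCh38. The program that made the TPM values, its annotation, its strand setting and the read length are not given in the sources used here. All 12 samples were placed by their labels and no column was left unused.

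Of 58174 identifiers, 57392 matched a symbol and 57836 are in GENCODE release 29, whose positions are printed. TPM + 1 was taken to log2 and fitted with limma 3.58.1 (lmFit, eBayes with trend) in R 4.3.3, in each line alone and, for the difference between the lines, over all 12 libraries. p-values were adjusted over all genes tested by the method of Benjamini and Hochberg. Family sums, line-specific genes, sequence windows and correlations are descriptions with no test. Promoter windows are RefSeq's and were matched by symbol for 4 of 9 genes. Python 3.11.15 with pandas 2.3.3 joined the tables, and matplotlib 3.10.9 drew the figures.

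The members, the gene lists (other metallothioneins, SLC30, SLC39, copper handling, cluster neighbours, heat shock and heavy metal response, glucocorticoid response, cell type markers) and the tests were chosen with earlier results of these data known. Named are all members, other metallothionein rows at 1 TPM in at least 3 libraries of a line, the called genes of the other lists, and the 5 genes closest to MT2A and to SLC30A1. SCO2 was left out of the copper list because its symbol had 2 identifiers, and the values of 1 neighbour are not reported here. The alternatives varied the pseudocount (0.1 or 0.01) and the filter (none, or a mean from 10 TPM up). Others were median-ratio scaling, TPM without mitochondrially encoded genes, a replicate block, eBayes without trend, no threshold on size, and leaving out each library.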

Additional observations from a re-analysis of the deposited data

Results flagged for a closer look

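These genes were singled out because their change differed between U118 and U87 in a test of the difference itself, limma's interaction over all 12 libraries, as 30.5% of all genes tested did. Values are log2 changes in U118 minus those in U87, and each involves the libraries labelled U118 resistant, whose line label was at odds with their expression. Among the metallothionein rows the difference was 5.61 for MT1F (SE 0.20, limma adjusted p = 1.28e-09), 6.88 for the pseudogene MT1L (SE 0.25, limma adjusted p = 1.28e-09), 2.04 for MT1DP (SE 0.16, limma adjusted p = 7.07e-07) and -1.35 for MT2P1 (SE 0.28, limma adjusted p = 0.00237). MT1F and MT1L stood at 64.6 to 116 and 49.0 to 72.9 TPM in the U87 libraries and at 0 to 0.339 TPM in the sensitive U118 libraries. MT1DP was listed at 0 in every U87 library. The part of the line label in these values was not tested.

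Among the zinc transporters the difference was 3.09 for SLC30A3 and 3.56 for SLC39A4, both listed higher in all libraries labelled U118 resistant than in sensitive U118 libraries, with limma adjusted p of 1.91e-07 and 2.57e-06. SLC30A3, like MT1DP, entered this fit through the resistant-labelled U118 libraries alone. It was -1.14 for SLC39A6, -1.16 for SLC39A7, -1.54 for SLC39A9 and -1.46 for SLC39A10, with limma adjusted p between 0.00347 and 0.0433. The call was lost for SLC39A10 in 13 alternatives and kept in 6, with adjusted p up to 0.107, and for SLC39A6 it was lost in 10 and kept in 10. The endoplasmic reticulum transporter SLC39A7 was listed at 117.5 to 120.9 TPM in sensitive and 143.2 to 162.1 TPM in resistant U87 libraries, but at 193.2 to 300.8 TPM in sensitive and 120.0 to 173.6 TPM in resistant-labelled U118 libraries. With median-ratio scaling the differences for SLC39A6 and SLC39A7 were -0.89 and -0.91 and were not called.

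Of the copper genes, SLC31A2 differed by 1.32 and COX17 by 1.45, with limma adjusted p of 0.00621 and 0.00599. Of the stress-responsive genes, HSPA1A differed by -2.52, HSPA1B by -2.03, BAG3 by 1.08 and DUSP1 by -1.13, with limma adjusted p between 1.33e-05 and 0.00298. HSPA1A was listed at 49.0 to 53.9 TPM in sensitive and 109.9 to 120.2 TPM in resistant U87 libraries, against 87.1 to 160.6 TPM and 42.3 to 50.5 TPM in U118. With median-ratio scaling DUSP1, at -0.89, was no longer called.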

How the results depend on the processing

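MT1X in U87 (1.06 to 1.36) and MT1F in U118 (6.21 to 11.45) kept direction and call under every alternative in which they were tested. MT2A in U87 ran from 0.95 to 1.26 and was called with median-ratio scaling, without mitochondrially encoded genes and without any 1 of sensitive replicates 1 and 3 and resistant replicates 1 and 3. In U87, 2 members were thus called with median-ratio scaling and 2 without mitochondrially encoded genes, 3 with no threshold on size, and 1 to 2 when leaving out each library. In U118 the count was 0 to 1 when leaving out each library. It was 0 without any resistant library because MT1F then reached 1 TPM in 2 libraries only and left the fit. With a minimum of 2 libraries, an alternative chosen after seeing the data, it was 1 each time, and MT1E was at -0.13 without resistant replicate 1.

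Signs turned for members without a call. With median-ratio scaling, MT1E and MTF1 in U87 were at 0.15 and 0.20, and MTF1 and SLC30A1 in U118 at 0.11 and 0.14. Without mitochondrially encoded genes, MT1E and MTF1 in U87 were at 0.027 and 0.10. A pseudocount of 0.01 put the MT1M difference between the lines at -0.21. Leaving out each library gave -0.092 to 0.053 for MTF1 in U87, -0.13 to 0.30 for MT1E in U118 and -0.017 to 0.41 for the MT1E difference. The SLC30A1 difference was -1.13 (limma adjusted p = 0.0181) and called without U118 resistant replicate 1. The cause was not tested.

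Over all genes, 805 were called in U87, 2688 in U118 and 2063 for the difference at a mean of at least 10 TPM, which tests fewer genes. With no threshold on size 5413 were called in U87. The family sum was 3566 and 7618 TPM in sensitive and resistant U87 cells and 3545 and 6658 TPM in U118 with median-ratio scaling, and 4309, 8344, 5422 and 7932 TPM without mitochondrially encoded genes, higher in resistant libraries each time. In U87 the replicate numbers did not pair the samples. Deviations from the group means correlated at -0.067 to 0.011 between same-numbered libraries and at -0.058 to 0.077 between others. In U118 these values were 0.051 to 0.139 and -0.108 to 0.040, so a weak pairing by number cannot be set aside there. A replicate block called 1454 genes in U87, 5581 in U118 and 5064 for the difference, and 1 member in each line. Depth is unknown, and 3 libraries a group limit the precision.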
